A study of Homo sapiens with 6 samples.

Results

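Small nucleolar RNAs (snoRNAs) were described in RNA-Seq libraries of A549 cells, a human lung adenocarcinoma line, after silencing of the long noncoding RNA FAM83H-AS1. The deposited table held 40173 genes, of which 388 were of the type snoRNA, and the 172 snoRNAs with a sum of at least 30 counts over the 6 libraries were taken as members. Another 104 had between 1 and 29 counts, and 112 had none. The members were thus chosen by their summed counts over all libraries together, so that a snoRNA could enter through a single library in which it was high. SNORD14B, SNORA41 and SNORD119 lay just inside with 32 counts each, and SNORD37, SNORD61 and SNORD71 just outside with 29 each. By their current symbols, 100 members were SNORD and 72 were SNORA genes. RNU105A, now SNORA73B, was placed in the second group, and RNU86, now SNORD139, in the first. The control group (3 libraries) was transfected with a scrambled negative control and the silence group (3 libraries) with an siRNA against FAM83H-AS1, and all libraries came from total RNA of this one line. The siRNA used for these libraries is not stated in the labels.

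snoRNAs are short RNAs that guide the chemical modification of other RNAs in the nucleolus. Most SNORD genes encode C/D box snoRNAs, which guide 2′-O-methylation of ribosomal RNA with the methyltransferase fibrillarin, and SNORA genes encode H/ACA snoRNAs, which guide pseudouridylation with dyskerin. A few, among them U3 (SNORD3A and its copies), U8 (SNORD118), U13 (SNORD13), U14 (SNORD14) and U17 (SNORA73), have been linked to the cleavage or folding of precursor ribosomal RNA. Most human snoRNAs are cut from introns of host genes, many of which encode ribosomal proteins or long noncoding RNAs, and they carry no poly(A) tail.

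Sequences could be read from GENCODE 29 (GRCh38) for 159 members. The 72 SNORA had a median length of 134 bases and the 87 SNORD with a sequence a median of 79. The letters TGATG of the C box within the first 25 bases, together with CTGA of the D box within the last 25, were present in 71 of these SNORD (81.6%) and in 1 SNORA. The letters ACA within the last 10 bases were present in 69 SNORA (95.8%) and in 8 SNORD. These motifs were searched in the direction of the RNA, and a match is a description of the letters alone. The names of the classes thus went with the letters of their boxes.

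The sequences below belong to members on which the results turn. Capitals mark the C and D box letters, or the last ACA within the last 10 bases. In SNORA23, another ACA lies 3 bases from the end and overlaps the marked letters. SNORA48 and SNORA23 were the members called lower both with and without control replicate 3.
SNORA48: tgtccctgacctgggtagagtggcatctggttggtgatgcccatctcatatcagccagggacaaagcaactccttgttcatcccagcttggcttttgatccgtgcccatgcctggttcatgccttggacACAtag
SNORA23: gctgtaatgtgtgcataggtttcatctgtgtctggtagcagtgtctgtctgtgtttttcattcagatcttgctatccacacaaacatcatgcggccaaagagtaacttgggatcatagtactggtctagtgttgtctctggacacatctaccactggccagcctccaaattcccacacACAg
SNORA48 lies at chr17:7574713-7574847 in an intron of EIF4A1 and SNORA23 at chr11:9428773-9428954 in an intron of IPO7, both on the plus strand of GRCh38.

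SNORD3A, the U3 RNA, is shown because it held most of the members' counts, and SNORA42 because it was the SNORA with the most. The search found no C box letters in the first 25 bases of SNORD3A.
SNORD3A: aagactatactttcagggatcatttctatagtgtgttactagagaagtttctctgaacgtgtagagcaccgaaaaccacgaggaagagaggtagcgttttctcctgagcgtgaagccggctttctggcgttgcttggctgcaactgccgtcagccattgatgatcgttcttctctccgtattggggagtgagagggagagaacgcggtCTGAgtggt
SNORA42: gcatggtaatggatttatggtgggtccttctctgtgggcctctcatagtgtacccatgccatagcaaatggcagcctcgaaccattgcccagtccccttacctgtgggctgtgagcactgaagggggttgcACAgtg
SNORA42, now named SNORA80E, lies on the minus strand at chr1:155919909-155920045 in an intron of KIAA0907 (now KHDC4).

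The next sequences are shown as pairs of snoRNAs from introns of the same host gene whose counts differed between libraries in different ways. SNORD24 (chr9:133349396-133349470) and SNORD36A (chr9:133350456-133350528) come from RPL7A, and SNORD32A (chr19:49489965-49490048) and SNORD35A (chr19:49491175-49491260) from RPL13A, all on the plus strand.
SNORD24: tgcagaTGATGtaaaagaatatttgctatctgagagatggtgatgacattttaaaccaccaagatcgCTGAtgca
SNORD36A: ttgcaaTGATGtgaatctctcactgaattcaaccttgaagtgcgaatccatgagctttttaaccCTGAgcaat
SNORD32A: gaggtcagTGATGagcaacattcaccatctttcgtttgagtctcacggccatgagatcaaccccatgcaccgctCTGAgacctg
SNORD35A: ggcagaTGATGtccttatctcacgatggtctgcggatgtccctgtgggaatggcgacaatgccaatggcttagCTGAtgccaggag

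The libraries held between 9738291 and 17742643 counts, and control replicate 3 was the deepest. The siRNA target FAM83H-AS1 fell from 15.9 ± 1.39 to 4.87 ± 0.617 CPM (SD, n = 3 each), where CPM relates counts to the TMM-adjusted library size. The difference was -1.70 on the log2 scale (SE 0.148, adjusted p = 7.99e-05 by edgeR). A549 markers were present, with KRT8 at 1590 to 2080 CPM and NQO1 at 183 to 213 CPM, whereas KRT19 (0.488 to 1.21 CPM), CDH1 (0.691 to 1.66 CPM) and ALDH1A1 (at most 0.149 CPM) were near 0. Of the markers of other cells, PTPRC, CD3E, PECAM1, COL1A2 and DCN were near 0 and COL1A1 was at 25.7 to 37.3 CPM. Control replicate 3 stood apart from the other control libraries, with a chi-square divided by its degrees of freedom of 29.2 and 24.7 against control replicates 1 and 2, compared with 6.76 between these. The main results on snoRNAs are therefore given with and without it. In bulk RNA, fewer cells that express a gene and less RNA per cell cannot be told apart.

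snoRNAs took a small share of the counts, and control replicate 3 held more of them than any other library. The 172 members together made up 0.121%, 0.163% and 0.299% of the counts in control replicates 1, 2 and 3 and 0.120%, 0.121% and 0.158% in silence replicates 1, 2 and 3. The mean was 0.195% ± 0.0928 in the control and 0.133% ± 0.0216 in the silence libraries (SD, n = 3 each), so that the groups differed by less than the spread of the control libraries. Within a library, counting error was small, with a 95% Wilson interval of 0.296% to 0.302% for control replicate 3. SNORD3A alone accounted for 69.6% of all member counts.

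The size of the excess in control replicate 3 differed between the classes. The 72 SNORA took 0.00900%, 0.0130% and 0.0520% of the counts in control replicates 1, 2 and 3, compared with 0.00807%, 0.00756% and 0.0105% in the silence libraries. The 95 SNORD other than U3 took 0.0149%, 0.0175% and 0.0510% in the control, compared with 0.0128%, 0.0104% and 0.0140% in the silence libraries. For the SNORD other than U3, each silence library lay below each control library, and for the SNORA the groups overlapped. The 5 U3 genes took 0.0974%, 0.133% and 0.196% in the control, compared with 0.0990%, 0.103% and 0.133% in the silence libraries, again with overlap. The host genes of the members did not share the pattern, with 2.48% of the counts in control replicate 3 and a mean of 2.66% in control replicates 1 and 2.

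**Figure D1:**
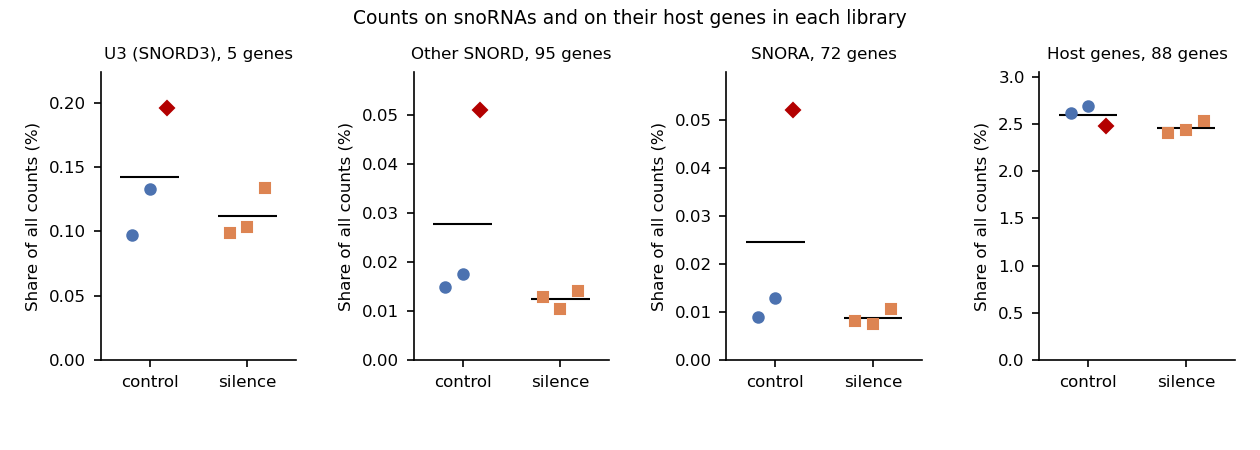
Share of all counts (%) on the U3 genes, the other SNORD, the SNORA and the host genes in each control and silence library, with control replicate 3 as a red diamond, replicates 1 to 3 from left to right and the group mean as a line; the 95% Wilson intervals are smaller than the symbols. Control replicate 3 held 0.0520% on SNORA, above the 0.00756% to 0.0130% of the other libraries, whereas its share on host genes was not raised.

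Member by member, control replicate 3 was above the mean of control replicates 1 and 2 by a median of 3.83 times in CPM, compared with 1.001 times over all 15250 tested genes. The ratio was over 2 for 137 of the 172 members (79.7%) and for 1.33% of all tested genes. These sets were not filtered alike. The members were chosen by summed counts, which control replicate 3 alone could supply, whereas the tested genes had passed a filter on low counts. Of the members, 69 did not pass that filter. The higher median and share of the members may thus partly reflect their choice. The median ratio was 4.96 for SNORA, 2.88 for SNORD other than U3 and 1.86 for the U3 genes. Control replicate 3 was the highest of all 6 libraries for 157 members, a number that also reflects the choice by summed counts. As a reference for the spread between control libraries, control replicate 2 was a median of 1.31 times control replicate 1.

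The ratio ranged widely between single snoRNAs. It was highest for SNORD8, a C/D box snoRNA of the CHD8 gene, with 0, 2 and 42 counts in the control and 2, 1 and 0 in the silence libraries, and for SNORA20 of the TCP1 gene, with 2, 3 and 61 and 4, 4 and 2 counts. These members entered the list through control replicate 3 and were too low elsewhere to be tested. Among abundant members, SNORA42 had 3.598, 12.1 and 67.8 CPM in the control and 6.84, 4.81 and 8.03 CPM in the silence libraries, and RNU105A (U17b) had 6.37, 8.55 and 47.9 and 3.91, 2.59 and 9.22 CPM. Without control replicate 3, the groups overlapped for both. In contrast, 9 members, all SNORD, were lower in control replicate 3 than in the mean of the other control libraries. SNORD36A was at 2.57, 4.32 and 3.02 CPM in the control and 4.003, 3.42 and 2.97 CPM in the silence libraries, and SNORD19 had 8, 9 and 6 counts in the control libraries.

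**Figure D2:**
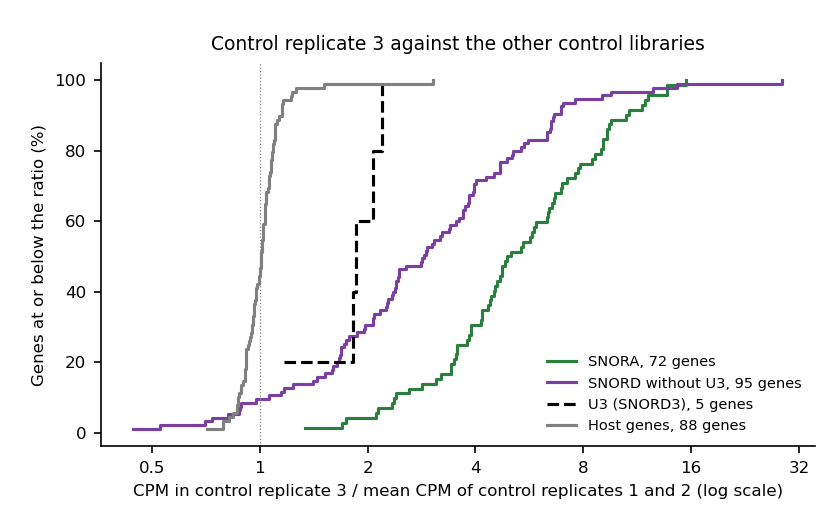
Cumulative share of genes (%) against the ratio of CPM in control replicate 3 to the mean of control replicates 1 and 2 (log scale) for 72 SNORA, 95 SNORD other than U3, 5 U3 genes and 88 host genes. The SNORA curve has its median at 4.96 and the SNORD curve at 2.88, while the host genes lie around 1.01.

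Other RNAs without a poly(A) tail were also high in control replicate 3. Its ratio to the mean of control replicates 1 and 2, by share of counts, was 6.27 for the 95 genes of the type snRNA, 3.33 for the 24 SCARNA genes, which encode guide RNAs of the Cajal body, 4.21 for RN7SK, 3.31 for RMRP, the RNA of RNase MRP, 2.92 for RPPH1, the RNA of RNase P, and 1.93 for RN7SL1, the RNA of the signal recognition particle. It was 1.58 for the histone genes and 1.33 for the ribosomal RNA genes. The mean share in the silence libraries over that in control replicates 1 and 2 was 0.597 for snRNA, 0.686 for SCARNA and 0.649 for RN7SK. It was 0.897 for RMRP, 0.551 for RPPH1, 0.717 for RN7SL1, 0.515 for the histone genes and 1.16 for the ribosomal RNA genes. For SNORA this value was 0.792, and for SNORD other than U3 it was 0.767. What part the differences of these other RNAs between libraries have in the snoRNA results was not tested.

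The comparison of silence with control libraries asked which genes changed after the loss of FAM83H-AS1. Of the 172 members, 103 passed the filter on low counts and 69 did not. A member was called when its adjusted p was under 0.05 over all 15250 tested genes and its fold change over 2, and 20 members were called lower and 0 higher. Over all tested genes, 0.997% were called lower and 1.14% higher. An adjusted p under 0.05 was reached by 21 of the tested members and by 17% of all tested genes, and an unadjusted one by 65 members and 32.1% of all tested genes (edgeR). The log2 fold change was below 0 for 101 of the 103, with a median of -1.22, compared with -0.00 over all tested genes. The median was -1.45 for the 34 tested SNORA and -1.05 for the 69 tested SNORD. Without control replicate 3, these medians were -0.27 and -0.35, and a difference between the classes was not tested. Since a member could pass the filter through high control libraries, these counts describe the tested members and not all 172. Over all 172, each silence library lay below each control library for 41 and above for 0. Of the 15250 tested genes, the silence libraries lay below for 2671 (17.5%) and above for 2908.

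Without control replicate 3, most of the difference was gone. Of 99 tested members, 76 had a log2 fold change below 0, the median was -0.34, and 14 had an unadjusted p under 0.05, compared with 28.3% of all genes in this fit. Of the members, only SNORA48 and SNORA23 were called in this fit, where 0.677% of all tested genes were called lower. The silence libraries lay below both control replicates 1 and 2 for 42 of the 172 members, beside 21.6% of all tested genes, and above both for SNORA5C and SNORD45A. Of the 15250 genes tested with all libraries, they lay above both for 3592. SNORA5C, an H/ACA snoRNA of the TBRG4 gene, had 2, 6 and 73 counts in the control and 6, 17 and 16 in the silence libraries, and its log2 fold change went from -0.73 (SE 0.770) with all libraries to 1.56 (SE 0.614, adjusted p = 0.12 by edgeR) without control replicate 3.

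The number called by edgeR also moved when any other library was left out. It was 48 without control replicate 1, 30 without control replicate 2, 4 without silence replicate 1, 3 without silence replicate 2 and 7 without silence replicate 3. The share of all genes called in these fits is not given here, so the counts do not set snoRNAs apart from other genes. Of the 20 called members, only SNORA48 was called in all 6 of these fits. SNORA21, SNORA23, SNORD14D, SNORD18A and SNORD76 were called in 3 of them, and the remaining 14 in 1 or 2. SNORD14D and SNORD13 passed the filter on low counts in only 4 of the 6 fits.

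**Figure D3:**
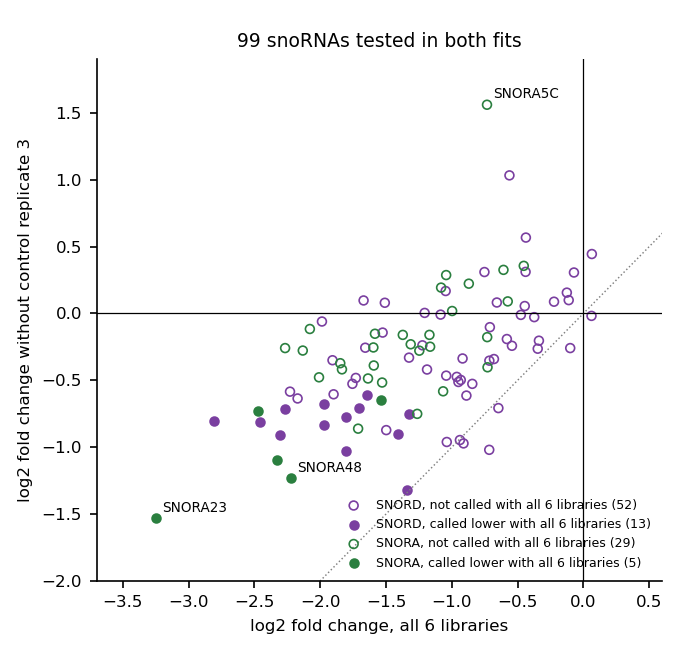
Log2 fold change of silence against control with all 6 libraries (horizontal axis) and without control replicate 3 (vertical axis) for the 99 snoRNAs tested in both fits, with members called lower from all 6 libraries as filled points and equality as a dotted line. Most points lie above the dotted line, with a median of -0.34 on the vertical axis, and SNORA23 at -1.53 and SNORA48 at -1.23 lie lowest among the SNORA.

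Among the SNORA, 5 were called lower. SNORA48, from an intron of EIF4A1, which encodes a translation initiation helicase, was at 4.83, 5.53 and 19.6 CPM in the control and 2.54, 1.85 and 2.23 CPM in the silence libraries. The groups did not overlap, and leaving out control replicate 3 could not change that. Its log2 fold change was -2.22 (SE 0.498, adjusted p = 0.0128 by edgeR) and -1.23 (SE 0.250, adjusted p = 0.0101 by edgeR) without control replicate 3. EIF4A1 itself had 346 ± 23.9 CPM in the control and 333 ± 8.39 CPM in the silence libraries (SD, n = 3 each) and a log2 fold change of -0.06 (SE 0.0716, adjusted p = 0.62 by edgeR). SNORA23, from an intron of IPO7, which encodes a nuclear import receptor, was at 1.65, 3.97 and 21.3 CPM in the control and 0.879, 0.925 and 1.12 CPM in the silence libraries. The silence libraries lay close together and below every control library. Its log2 fold change was -3.25 (SE 0.808, adjusted p = 0.02 by edgeR), and -1.53 (SE 0.414, adjusted p = 0.0337 by edgeR) without control replicate 3. IPO7 had a log2 fold change of -0.08 (SE 0.0797, adjusted p = 0.53 by edgeR).

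The other called SNORA were SNORA21 of RPL23, SNORA4 of EIF4A2 and SNORA6 of RPSA. SNORA21 was at 2.16, 3.46 and 13.5 CPM in the control and 0.977, 1.30 and 1.64 CPM in the silence libraries, without overlap, and had a log2 fold change of -2.33 with all libraries and of -1.10 (SE 0.354, adjusted p = 0.0643 by edgeR) without control replicate 3. SNORA6 was at 2.98, 3.63 and 11.3 CPM in the control and 1.56, 2.03 and 2.68 CPM in the silence libraries, and its log2 fold change went from -1.54 to -0.64. SNORA4 was at 1.44, 2.85 and 16.6 CPM in the control and 0.684, 1.11 and 2.01 CPM in the silence libraries, so that its groups overlapped, and the log2 fold change went from -2.47 to -0.73 (adjusted p = 0.324 by edgeR).

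Among the SNORD, 15 were called lower: SNORD12C, SNORD13, SNORD14D, SNORD15B, SNORD18A, SNORD24, SNORD30, SNORD32A, SNORD46, SNORD57, SNORD76, SNORD78, SNORD80, SNORD83A and SNORD88C. Over all 20 called members, the log2 fold changes ranged from -3.25 to -1.32, the groups did not overlap for 17, and control replicate 3 was the highest library for 19. Of the 15250 tested genes, every silence library lay below every control library for 17.5%, and control replicate 3 was the highest library for 2283. The calls used the same libraries, so the 17 and the 19 describe the called members and are no separate support. Without control replicate 3, the 18 that could still be tested had log2 fold changes from -1.53 to -0.61, all below 0. As the remaining libraries had also entered the calls, this direction is a description and no separate support.

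SNORD46, a C/D box snoRNA, was at 3.08, 3.54 and 31.8 CPM in the control and 1.17, 1.39 and 2.97 CPM in the silence libraries. Silence replicate 3 was close to the lower control libraries. Its log2 fold change was -2.81 (SE 0.825, adjusted p = 0.0393 by edgeR), and -0.80 (SE 0.376, adjusted p = 0.186 by edgeR) without control replicate 3. SNORD13, which encodes U13, has its own promoter and no host gene. It had a log2 fold change of -2.87 (SE 0.877, adjusted p = 0.045 by edgeR) and low values, 0.925, 1.30 and 7.33 CPM in the control and 0.391, 0 and 0.892 CPM in the silence libraries, and it was below the filter on low counts without control replicate 3.

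SNORD57 differed from the other called members in that control replicate 3 was not the highest library. This C/D box snoRNA comes from an intron of NOP56, which encodes a core protein of C/D box particles. It was at 1.03, 1.99 and 1.60 CPM in the control and 0.781, 0.370 and 0.669 CPM in the silence libraries, without overlap. The log2 fold change was -1.34 (SE 0.390, adjusted p = 0.0376 by edgeR) with all libraries and -1.32 (SE 0.478, adjusted p = 0.0926 by edgeR) without control replicate 3. It rested on 81 counts in all. NOP56 fell from 193 ± 17.3 to 137 ± 7.07 CPM (SD, n = 3 each), with a log2 fold change of -0.50 (SE 0.082, adjusted p = 0.00305 by edgeR). SNORD86, also of NOP56, was at 1.54, 1.12 and 1.18 CPM in the control and 0.781, 0.647 and 0.595 CPM in the silence libraries, a log2 fold change of -0.91 (SE 0.340, adjusted p = 0.0893 by edgeR), and of -0.97 (adjusted p = 0.162 by edgeR) without control replicate 3. For SNORD110 and SNORD56, the other members of NOP56, the groups overlapped. SNORD110 was at 1.34, 2.33 and 3.43 CPM in the control and 2.25, 1.11 and 1.56 CPM in the silence libraries. Its log2 fold change was -0.58 (adjusted p = 0.311 by edgeR), and -0.19 without control replicate 3. SNORD56 was at 0.617, 0.691 and 2.31 CPM in the control and 0.098, 0.277 and 1.04 CPM in the silence libraries. It was too low to be tested.

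SNORD55, the member outside the U3 genes with the highest CPM per kilobase of RNA in the silence libraries, had an adjusted p of at most 0.0437 (edgeR) in all 6 fits that left out a library, and passed the fold change of 2 in 2 of them. It was at 13.2, 14.9 and 22.4 CPM in the control and 10.9, 8.79 and 8.03 CPM after silencing, without overlap and with control replicate 3 only 1.60 times the mean of the other control libraries. Its log2 fold change was -0.89 (SE 0.201, adjusted p = 0.0133 by edgeR), and -0.61 (SE 0.169, adjusted p = 0.0357 by edgeR) without control replicate 3.

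**Figure D4:**
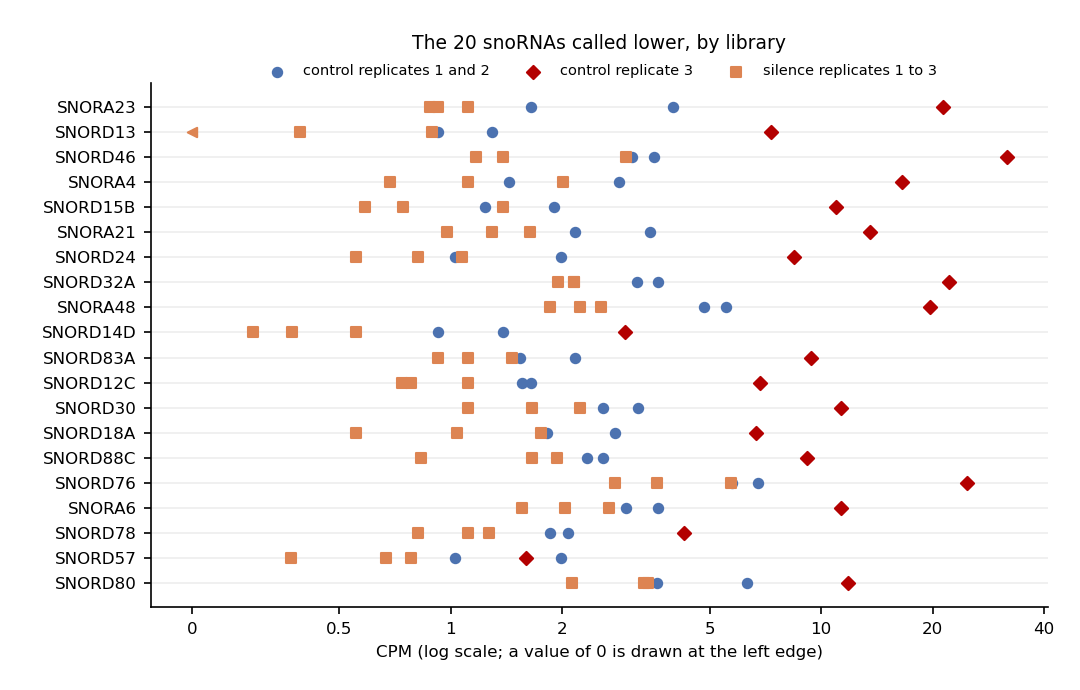
CPM (log scale) in each library for the 20 snoRNAs called lower, with control replicates 1 and 2 as circles, control replicate 3 as a diamond and the silence libraries as squares. Control replicate 3 is the highest library for 19 of them, SNORD57 being the exception, and the groups overlap for SNORA4, SNORD15B and SNORD24.

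The snoRNAs named above as linked to the cleavage or folding of precursor ribosomal RNA were not called, apart from SNORD13 and SNORD14D. SNORD3A was at 900, 1183 and 1890 CPM in the control and 898, 913 and 1256 CPM in the silence libraries, a log2 fold change of -0.37 (SE 0.221, adjusted p = 0.272 by edgeR), and of -0.03 (SE 0.147, adjusted p = 0.923 by edgeR) without control replicate 3. The copies SNORD3B-1, SNORD3C and SNORD3D, whose reads may be shared with SNORD3A, had log2 fold changes between -0.48 and -0.07, and SNORD3B-2 one of -1.04 (SE 0.477, adjusted p = 0.159 by edgeR). In the fit without control replicate 3, SNORD3B-1 was at 0.0552, SNORD3C at 0.31, SNORD3D at -0.0111 and SNORD3B-2 at -0.96. SNORD3B-2 was uneven within the silence group, with 30.8, 48.5 and 6.47 CPM. U14 is encoded by 5 members. Among those in HSPA8 introns, SNORD14D was at 0.925, 1.38 and 2.96 CPM in the control and 0.293, 0.555 and 0.372 CPM in the silence libraries, a log2 fold change of -2.16 (SE 0.508, adjusted p = 0.0158 by edgeR). The neighbouring SNORD14C and SNORD14E had -1.66 (adjusted p = 0.131 by edgeR) and -0.44 (adjusted p = 0.583 by edgeR), and -0.26 and 0.31 without control replicate 3, where SNORD14D was below the filter on low counts. SNORD14A and SNORD14B of RPS13 and SNORD118, which encodes U8, were too low to be tested, with at most 31 counts in any library. SNORA73A (U17a) had -1.17 (adjusted p = 0.109 by edgeR) and RNU105A (U17b) -2.01 (adjusted p = 0.0665 by edgeR), and these values were -0.25 and -0.48 without control replicate 3.

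A host gene in RefSeq was found for 165 members, in 90 host genes. Of 149 members with a known position, 135 lay in an intron and 14 in an exon. Ribosomal protein genes hosted 48 members, long noncoding RNA genes 45 and other genes 72. For the 94 tested members with a tested host, the median log2 fold change was -1.24 for the snoRNAs and -0.15 for the hosts, and the snoRNA was the lower one in 88 pairs. Without control replicate 3, these medians were -0.34 and -0.14 over 91 pairs, and the snoRNA was the lower one in 62. Across these pairs, which share 46 hosts and all libraries, Pearson's r was -0.08, as a description across genes. The hosts had a median ratio of control replicate 3 to the other control libraries of 0.99.

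The 1 host called lower was RPL10, which encodes a ribosomal protein of the large subunit and whose pseudogenes may share its reads. It was at 379, 373 and 333 CPM in the control and 144, 135 and 157 CPM in the silence libraries, a log2 fold change of -1.32 (SE 0.0823, adjusted p = 9.74e-06 by edgeR), and -1.38 without control replicate 3. Its snoRNA SNORA70 was at 5.35, 9.16 and 16.9 CPM in the control and 6.45, 5.55 and 7.36 CPM after silencing. The groups overlapped for SNORA70, whose log2 fold change was -0.73 (SE 0.327, adjusted p = 0.148 by edgeR), and -0.18 (SE 0.237) without control replicate 3. The sequence of SNORA70, printed to show the snoRNA whose host fell most, is from chrX:154400281-154400415 on the plus strand.
SNORA70: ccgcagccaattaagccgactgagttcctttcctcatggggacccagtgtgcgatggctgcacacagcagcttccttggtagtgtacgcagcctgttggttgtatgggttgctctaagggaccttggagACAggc

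snoRNAs of one host gene, made from the same precursor, differed among themselves in the excess of control replicate 3. In RPL7A, SNORD24 had a ratio to the other control libraries of 5.61 and SNORD36A of 0.88, and the gene itself was at 0.79. SNORD24 was called lower (-2.30, SE 0.683, adjusted p = 0.0405 by edgeR), SNORD36A had a log2 fold change of 0.06 (adjusted p = 0.898 by edgeR), and RPL7A itself was higher by 0.31 (SE 0.0923, adjusted p = 0.0411 by edgeR). When control replicate 3 was left out, SNORD24 was at -0.91 (SE 0.452, adjusted p = 0.213 by edgeR) and SNORD36A at -0.0185. In RPL13A, SNORD32A, SNORD33 and SNORD34 had ratios of 6.51, 5.37 and 6.62 and SNORD35A of 1.78. Of these, only SNORD32A was called lower, with 3.19, 3.63 and 22.2 CPM in the control and 2.15, 1.94 and 2.16 CPM in the silence libraries. Its log2 fold change went from -2.27 to -0.71 (adjusted p = 0.106 by edgeR) without control replicate 3.

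The long noncoding RNA genes GAS5 and SNHG1 hosted 9 and 8 members. In GAS5, SNORD76, SNORD78 and SNORD80 were called lower. SNORD78 was at 1.85, 2.07 and 4.26 CPM in the control and 1.27, 1.11 and 0.818 CPM in the silence libraries, and its log2 fold change went from -1.41 (SE 0.381, adjusted p = 0.0283 by edgeR) to -0.90 (SE 0.363, adjusted p = 0.128 by edgeR) without control replicate 3. SNORD76 was at 5.76, 6.74 and 24.8 CPM in the control and 3.61, 2.77 and 5.72 CPM in the silence libraries, with the highest silence library just below the lowest control library, and its log2 fold change went from -1.65 to -0.61 (adjusted p = 0.177 by edgeR) without control replicate 3. For the 8 GAS5 members tested, the log2 fold changes ranged from -1.65 to -0.93, and from -0.90 to -0.33 without control replicate 3, while GAS5 itself had -0.23 (SE 0.104, adjusted p = 0.157 by edgeR). In SNHG1, only SNORD30 was called lower, at -1.81 (SE 0.527, adjusted p = 0.0382 by edgeR), and it was at -0.77 (SE 0.342, adjusted p = 0.163 by edgeR) without control replicate 3. SNORD25 of the same host was at -0.11 (SE 0.257) and 0.10. The 8 SNHG1 members were spread over a median of -1.06, which was -0.12 without control replicate 3, with 4 of the 8 below 0. SNHG1 itself had -0.13 (SE 0.0938, adjusted p = 0.361 by edgeR).

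**Figure D5:**
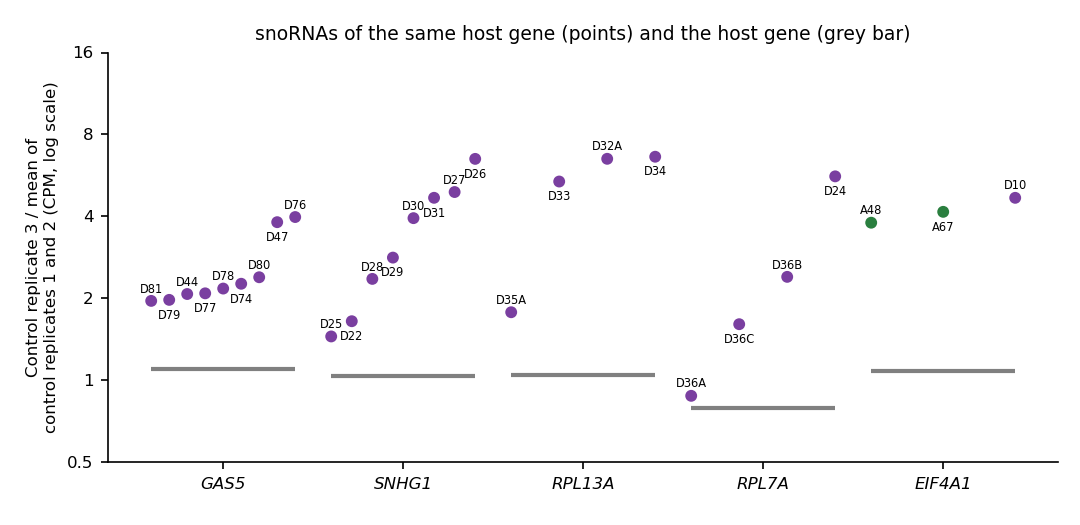
Ratio of CPM in control replicate 3 to the mean of control replicates 1 and 2 (log scale) for the snoRNAs of 5 host genes (points, SNORD purple with D and SNORA green with A before the number) and for the host gene (grey bar). SNORD24 at 5.61 stands apart from SNORD36A of the same host at 0.88, and the hosts lie between 0.79 and 1.103.

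The members below the filter on low counts were also fitted with all genes of at least 30 counts. In this fit, 166 of the 172 members had a log2 fold change below 0 with a median of -1.31, and 21 were called lower, of which 17 were among the 20. Of all 16910 genes in this fit, 0.988% were called lower. With control replicate 3 left out, 126 of the 172 were below 0 and the median was -0.33. The other 4 were SNORD88A, SNORA38B, SNORA46 and SNORA53. SNORD88A of C19orf48 had 12, 9 and 55 counts in the control and 5, 1 and 3 in the silence libraries. SNORA38B of NOL11 had 6, 4 and 38 counts against 1, 0 and 1, SNORA46 of CNOT1 had 3, 5 and 40 against 1, 0 and 3, and SNORA53 of SLC25A3 had 7, 8 and 78 against 2, 1 and 7. None of these 4 was called without control replicate 3, where SNORA48 and SNORA23 were the only calls.

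Of the mRNAs for the proteins that build and process snoRNA particles, about as large a share passed the test as of all genes. All 40 genes of the list were tested, and 0 were called at a fold change over 2. An unadjusted p under 0.05 was reached by 13 and an adjusted one by 7 (edgeR), beside 32.1% and 17% of all tested genes, so that neither count stood out from the background. The log2 fold change was below 0 for 28 of the 40, with a median of -0.10. Among the core proteins, NOP56 of the C/D box particle fell, as did NHP2 (-0.39, SE 0.0987, adjusted p = 0.0212 by edgeR) and GAR1 (-0.45, SE 0.127, adjusted p = 0.035 by edgeR) of the H/ACA particle. The methyltransferase FBL had a log2 fold change of -0.09 (adjusted p = 0.448 by edgeR) and the pseudouridine synthase DKC1 one of -0.12 (adjusted p = 0.267 by edgeR). Among the assembly factors, SHQ1, a chaperone of DKC1, fell by 0.40, ZNHIT3 fell by 0.31 and the ATPase RUVBL1 fell by 0.36 on the log2 scale, and the exonuclease XRN1 rose by 0.39 (adjusted p = 0.0188 by edgeR). The ratio of control replicate 3 to the other control libraries had a median of 0.98 over these genes and was over 2 for none. Without that library, 5 of them had an adjusted p under 0.05, beside 12.4% of all genes in that fit.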

How the data were processed

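Libraries of total RNA from A549 cells were made for the Ion Proton, and MapSplice was used by the authors for mapping and for counting per gene. The submitters' processing notes name GRCh37. The deposited values are whole counts without normalization, 40173 genes in 6 libraries, and the gene type is that of the deposited table. The treatment of strand and of reads that match several places is not given in the sources used here, so that reads of near-identical copies (SNORD3, SNORD14) and reads from a host intron may be counted on a snoRNA. The labels give 3 replicates a group and do not say whether they were separate transfections, so that p-values measure the spread between these libraries.

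All genes were fitted with edgeR 4.0.16 in R 4.3.3 (filterByExpr, TMM factors of 0.955 to 1.02, quasi-likelihood F test, no covariate, Benjamini-Hochberg adjustment over 15250 genes). The thresholds for a call were 0.05 for the adjusted p and 2 for the fold change, and the standard error was taken as the size of the log2 fold change over the root of F. The fit was also run on simulated counts. These had the same dispersion for all genes and no outlying library such as control replicate 3, so that run does not test the snoRNA calls. DESeq2 1.42.0, other scalings, filters and thresholds, a replicate block and leaving out each library were tried as alternatives. Shares of counts have 95% Wilson intervals, which cover counting error only. A member had a median of 9, 14 and 66.5 counts in control replicates 1, 2 and 3 and of 8, 8 and 14 in silence replicates 1, 2 and 3.

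RNA sequences, strands and positions were taken from GENCODE 29 on GRCh38, and current symbols and host genes from RefSeq on GRCh38.p14. The 40 genes of the snoRNA particle list comprise core proteins, assembly and transport factors and processing enzymes. The rule for named genes took FAM83H-AS1, every called member, the 6 members of each class with the most counts, the 5 tested members with the largest change in each direction, snoRNAs known by name, members just inside and outside the minimum of 30 counts, genes of the particle list with an adjusted p under 0.05, and hosts of the called members. SNORD8, SNORA20, SNORD19, SNORA5C, SNORD45A, SNORD86, SNORD110, SNORD56, SNORD34, SNORD88A, SNORA38B, SNORA46, SNORA53, RPL10, GAS5 and SNHG1 members outside this rule, FBL and DKC1 were named after their values had been seen. The members and lists were chosen with earlier results of these data known.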

Additional observations from a re-analysis of the deposited data

How the results depend on the processing

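The number of members called lower was 20 with all libraries. It was 13 where 10 counts were required in every library, 102 with no filter on low counts, 0 at an adjusted p under 0.01, 2 with a sum of at least 30 counts and without control replicate 3, and 2 to 48 with 1 library left out. It stayed between 16 and 21 with DESeq2, RLE size factors, library size only, factors from mRNA genes or a sum of at least 30 counts, and DESeq2 shared 10 of the 20 calls. The cause of these differences was not tested. The number called higher was 0 in every alternative run. Same-numbered control and silence libraries had correlations of their deviations of 0.12, 0.15 and 0.07, so that the numbers were not taken to pair the libraries, although every control library correlated best with its own number. With the replicate number as a block, 48 members were called lower. With the block and without control replicate 3, an alternative chosen after seeing the data, 8 were called lower, with a median of -0.46. Where no share of all genes called is given above, these counts of called members do not set snoRNAs apart from other genes. The median log2 fold change of -1.22 was -0.33 with a sum of at least 30 counts without control replicate 3 and between -1.56 and -0.34 with 1 library left out. FAM83H-AS1 stayed between -1.82 and -1.64.

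Of the 40 particle genes, 4 had an adjusted p under 0.05 with library size only, 1 had one under 0.01, and 2 to 6 did with 1 library left out. Without SNORD3A, the shares of counts on members were 0.0648% in the control and 0.0298% in the silence libraries. Where 10 counts were required in each library, the ratio of control replicate 3 was a median of 2.61. Over 45 named snoRNAs and all alternatives, 532 values kept direction and side of the threshold, 113 lost and 29 gained significance and 25 changed sign, all of snoRNAs that were not called. With a sum of at least 30 counts and without control replicate 3, the values were 0.22 for SNORA62, 0.31 for SNORD14E, 0.10 for SNORD25, -0.0173 for SNORD36A, 0.0563 for SNORD3B-1, 0.31 for SNORD3C and 0.0887 for SNORD96A. With the block and without control replicate 3, SNORA62 was at 0.22, SNORD25 at 0.0436 and SNORD96A at 0.15. With 1 library left out in turn, the values ran from -1.25 to 0.22 for SNORA62, from -1.05 to 0.31 for SNORD14E, from -0.31 to 0.0993 for SNORD25, from -0.0727 to 0.29 for SNORD36A, from -0.77 to 0.0552 for SNORD3B-1, from -0.43 to 0.31 for SNORD3C, from -0.19 to 0.44 for SNORD42A, from -0.26 to 0.24 for SNORD4A and from -0.41 to 0.0876 for SNORD96A. Of the members, 8 had 3 counts or fewer in every silence library and none of these was tested.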

Other observations

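The RNAs of the SNORD115 and SNORD116 clusters, C/D box snoRNAs of the Prader-Willi region that are known mainly from neurons, were near 0. Their 76 genes, none of which was a member, together took 1.09e-04% of the counts in the control and 3.81e-05% in the silence libraries (mean, n = 3 each). The 24 SCARNA genes took 0.00337% ± 0.00255 of the counts in the control and 0.00130% ± 2.58e-04 in the silence libraries (SD, n = 3 each), and 0.00190% in the mean of control replicates 1 and 2. RNY3, a Y RNA of Ro particles, took 0.00275% of the counts in control replicate 3, 3.02e-04% in the mean of the other control libraries and 2.52e-04% in the silence libraries.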
